A study of Mus musculus with 4 samples.

Results

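The p53 protein is a transcription factor that is stabilised after DNA damage and other stress, and the genes described here are 10 of its known targets that stop the cell cycle, repair DNA or feed back on p53 itself: Cdkn1a, Mdm2, Ccng1, Trp53inp1, Sesn1, Phlda3, Gadd45a, Btg2, Plk2 and Zmat3. Their probes were found by the RefSeq transcript accession that the arrays give for each probe, which yielded 17 probes for 10 of the 18217 genes with a named probe. All 17 probes were well above background on all 4 arrays, so every one of the 10 genes entered the comparison of 15537 genes. Of these 15537, 10953 carried a gene symbol. The others were transcripts or probes without a symbol, each counted as a gene, and shares of all genes include them. The treated samples were Hepa1c1c7, a mouse hepatoma cell line, exposed for 6 hours to 100 µM diethyl maleate (DEM), an electrophile that binds thiols such as glutathione (n = 2 arrays). The controls were the same line exposed for 6 hours to the solvent dimethyl sulfoxide (DMSO; n = 2 arrays). The line is a single tumour line, the extract protocol names liver tissue where the other labels name the line, and separate cultures are not stated for the samples of a group. The p-values therefore take in only how far these samples varied, a spread that may be technical.

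In unstressed cells p53 is kept low because MDM2, itself a p53 target, marks it for destruction. When p53 accumulates it binds DNA elements made of a pair of 10-base half-sites and switches on Cdkn1a, whose protein p21 inhibits cyclin-dependent kinases, together with genes that slow growth, aid repair and limit p53. Several of these genes are also switched on by other stress pathways without p53, Gadd45a and Cdkn1a among them.

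RefSeq promoter windows (GRCm38.p6, 250 bases before to 50 bases after a start site) were matched for 8 of the 10 genes, in 10 windows. Trp53inp1 and Zmat3 had no entry. A match to the p53 half-site consensus, a palindrome that reads the same on both strands, stood in 5 of the 10 windows, each of a different gene, and in 8.36% of the 32851 promoter windows of all genes. The 5 windows are shown because they hold these half-site matches. A pair of half-sites, as p53 is known to bind, stood in those of Cdkn1a and Ccng1. They are written 5′ to 3′ on the strand of the gene, and capitals mark the half-site matches. They lie at chr17:29090729-29091028 (plus strand) for Cdkn1a, chr10:117710709-117711008 (minus) for Mdm2, chr11:40755237-40755536 (minus) for Ccng1, chr6:67037358-67037657 (minus) for Gadd45a and chr10:41887189-41887488 (plus) for Sesn1, at the downstream of its 2 start sites.
Cdkn1a: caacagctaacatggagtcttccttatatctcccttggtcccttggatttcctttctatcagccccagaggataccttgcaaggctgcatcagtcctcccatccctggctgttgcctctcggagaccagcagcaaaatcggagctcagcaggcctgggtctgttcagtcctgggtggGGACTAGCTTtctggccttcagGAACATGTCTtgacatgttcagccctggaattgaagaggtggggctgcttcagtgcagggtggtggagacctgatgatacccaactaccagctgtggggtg
Mdm2: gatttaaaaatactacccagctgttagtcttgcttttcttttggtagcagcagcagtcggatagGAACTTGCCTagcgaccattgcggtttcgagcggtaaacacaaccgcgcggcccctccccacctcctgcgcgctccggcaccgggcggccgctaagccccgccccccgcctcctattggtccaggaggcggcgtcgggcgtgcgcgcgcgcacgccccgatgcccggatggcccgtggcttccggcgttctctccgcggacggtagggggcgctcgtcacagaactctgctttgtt
Ccng1: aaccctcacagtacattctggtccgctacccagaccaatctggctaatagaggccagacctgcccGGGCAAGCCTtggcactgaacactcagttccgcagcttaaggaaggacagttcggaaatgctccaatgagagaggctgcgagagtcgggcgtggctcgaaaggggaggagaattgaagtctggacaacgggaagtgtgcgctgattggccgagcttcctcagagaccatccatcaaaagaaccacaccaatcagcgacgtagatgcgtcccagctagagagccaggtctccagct
Gadd45a: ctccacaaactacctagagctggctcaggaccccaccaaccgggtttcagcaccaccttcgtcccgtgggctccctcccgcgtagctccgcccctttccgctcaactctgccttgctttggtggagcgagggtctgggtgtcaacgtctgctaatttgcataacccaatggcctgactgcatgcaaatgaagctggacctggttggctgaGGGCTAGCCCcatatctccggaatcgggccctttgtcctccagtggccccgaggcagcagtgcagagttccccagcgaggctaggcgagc
Sesn1: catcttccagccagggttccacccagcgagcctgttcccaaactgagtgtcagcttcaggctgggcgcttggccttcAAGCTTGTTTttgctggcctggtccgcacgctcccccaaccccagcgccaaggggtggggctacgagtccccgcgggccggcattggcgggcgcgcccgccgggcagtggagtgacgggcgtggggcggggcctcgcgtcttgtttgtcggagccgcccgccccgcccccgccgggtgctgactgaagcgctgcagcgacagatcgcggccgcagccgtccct

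The Cdkn1a window belongs to the farther upstream of 2 annotated start sites, which lie 2790 bases apart. It held 2 half-sites, GGACTAGCTT at position −73 and GAACATGTCT at −51 from that start, 12 bases apart. GAACATGTCT is followed directly by TGACATGTTC, which differs from the consensus at 1 base. Such pairs, with 1 exact half-site, up to 1 mismatch in the other and 0 to 13 bases between them, stood in 2 of the 10 windows, those of Cdkn1a and Ccng1, and in 1.09% of all windows. In Ccng1 the pair was AGACCTGCCC, with 1 mismatch, followed directly by GGGCAAGCCT. The motif searches were chosen after the array data were seen. The core of the antioxidant response element, TGACNNNGC, through which NRF2 acts and which overlaps the AP-1 motif in some of its forms, was matched on either strand in 1 of the 10 windows, the downstream start of Cdkn1a, and in 12.4% of all windows. These matches are letters in a window and not measured binding, and a window without a match says nothing of sites elsewhere in the gene.

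By the brightest probe, the transcripts of 9 of the 10 genes had a higher mean in DEM than in DMSO (48.8% of all genes). That of Sesn1 had a lower one, and Cdkn1a was furthest up at 1.72-fold. With the mean of each gene's probes 8 were higher and 2 lower, since the probes of Btg2 disagreed. Of the 17 single probes, 12 were higher and 5 lower. None of the 10 passed an adjusted p of 0.05 (limma, Benjamini-Hochberg over all genes tested), against 1.22% of all genes, of which 0.714% were higher and 0.508% lower in DEM. At an unadjusted p under 0.05, 7 of the 10 had the higher mean in DEM and 0 the lower, against 9.02% and 10.2% of all genes. That count of 7 was 1 when arrays were scaled on spike-in probes, 6 under quantile normalization, 8 under median scaling and 9 with a replicate block. Over all genes the number higher in DEM at an unadjusted p under 0.05 was 487, 1499, 2195 and 1961 in these settings. It was 1401 in the main setting. The DEM arrays did not overlap the DMSO arrays for 8 of them, 7 higher (24.9% of all genes) and 1 lower (25.6% of all genes). The median log2 change of the 10 genes was 0.41, and that of all genes tested was −0.0061. The genes were chosen with these data known, so their counts and median are a description. In RNA from whole cultures, more cells expressing a gene and more RNA per cell cannot be told apart.

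**Figure D1:**
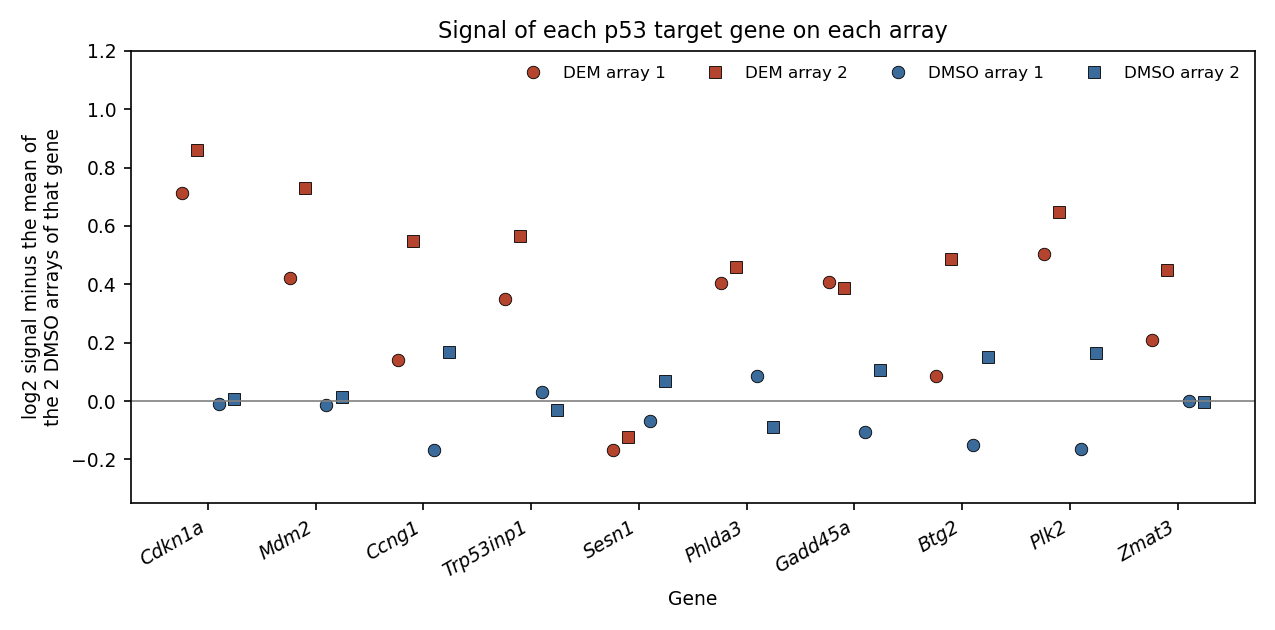
Signal of each of the 10 genes on each array, as log2 minus the mean of that gene's 2 DMSO arrays (y axis). Red marks are DEM arrays and blue marks DMSO arrays, with circles for replicate 1 and squares for replicate 2. The DEM arrays lie above both DMSO arrays for 7 genes, overlap them for Ccng1 and Btg2, and lie below them for Sesn1.

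Values of single arrays are given as relative signal, the processed signal of the probe divided by the 75th percentile of that array, which compares arrays for the same probe but not probes with each other. Cdkn1a, the inhibitor of cyclin-dependent kinases, had a relative signal of 12.1 and 13.4 on the DEM arrays, against 7.34 and 7.43 on the DMSO arrays. Both DEM arrays were far above both DMSO arrays. The log2 change was 0.79 ± 0.10 (moderated SE, n = 2 arrays per group), with a 95% interval of 0.53 to 1.04. Here and below, ± gives the SE moderated by limma, which draws also on the spread of all genes tested. The adjusted p of Cdkn1a was 0.0541 (limma), just outside the threshold. By p-value it stood 236th of the 15537 genes, of which 190 were called. The smallest log2 change among genes called higher was 0.73, so the size of the Cdkn1a change lay within the range of called rises.

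The Cdkn1a probe was spotted 10 times on each array, which shows the error of a single spot. Over the spots in use, its relative signal ran from 11.7 to 12.6 with a median of 12.1 on DEM array 1 (9 spots after 1 outlier was dropped) and from 13.2 to 13.6 with a median of 13.4 on DEM array 2. On the DMSO arrays it ran from 7.05 to 7.58 (median 7.37) on array 1 and from 7.19 to 7.66 (median 7.44) on array 2. Every spot of the DEM arrays lay above every spot of the DMSO arrays. The SD over spots was 0.012 to 0.035 on the log2 scale, while the SD between the 2 DEM arrays was 0.10. Repeat spots share 1 labelled sample and are not replicates of the treatment.

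Plk2, a polo-like kinase of centriole duplication and the stress response, had relative signals of 10.5 and 11.6 in DEM, against 6.60 and 8.30 in DMSO. The groups did not overlap, though the DMSO arrays lay well apart. Its log2 change was 0.57 ± 0.15 (1.49-fold, adjusted p = 0.158, limma). Gadd45a, whose protein binds the replication clamp PCNA and promotes arrest and repair, gave 0.625 and 0.617 in DEM, against 0.438 and 0.507 in DMSO. The DEM arrays were nearly equal and above both DMSO arrays. Its log2 change was 0.40 ± 0.11 (1.32-fold, adjusted p = 0.172, limma), and it was 0.24 under normexp background correction with quantile normalization.

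Ccng1, which encodes cyclin G1, a partner of protein phosphatase PP2A that acts on MDM2, had relative signals of 10.4 and 13.8 in DEM, against 8.40 and 10.6 in DMSO. DEM array 1 lay just under DMSO array 2, so the groups overlapped. The log2 change was 0.34 ± 0.20, and its 95% interval ran from −0.19 to 0.87 (adjusted p = 0.436, limma). A second Ccng1 probe was tighter, at 8.91 and 9.36 in DEM, against 8.12 and 8.32 in DMSO. It gave a log2 change of 0.15 ± 0.09 with groups that did not overlap (adjusted p = 0.452, limma with every probe on its own).

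Btg2, an antiproliferative gene whose protein recruits the enzymes that shorten messenger RNA tails, was the gene whose probes disagreed in sign. The brightest of its 3 probes had relative signals of 0.984 and 1.30 in DEM, against 0.835 and 1.03 in DMSO, and the groups overlapped. Its log2 change was 0.29 ± 0.19 (adjusted p = 0.493, limma). The next probe had 0.201 and 0.241 in DEM, against 0.231 and 0.242 in DMSO, a log2 change of −0.10 ± 0.12. For the dimmest probe the values were 0.0983 and 0.0989 in DEM, against 0.111 and 0.116 in DMSO, a log2 change of −0.20 ± 0.089, with DEM below DMSO on every array. Averaging the 3 probes gave a log2 change of −0.0065. All 3 probes carry the same RefSeq accession, and no direction can be given for Btg2.

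**Figure D2:**
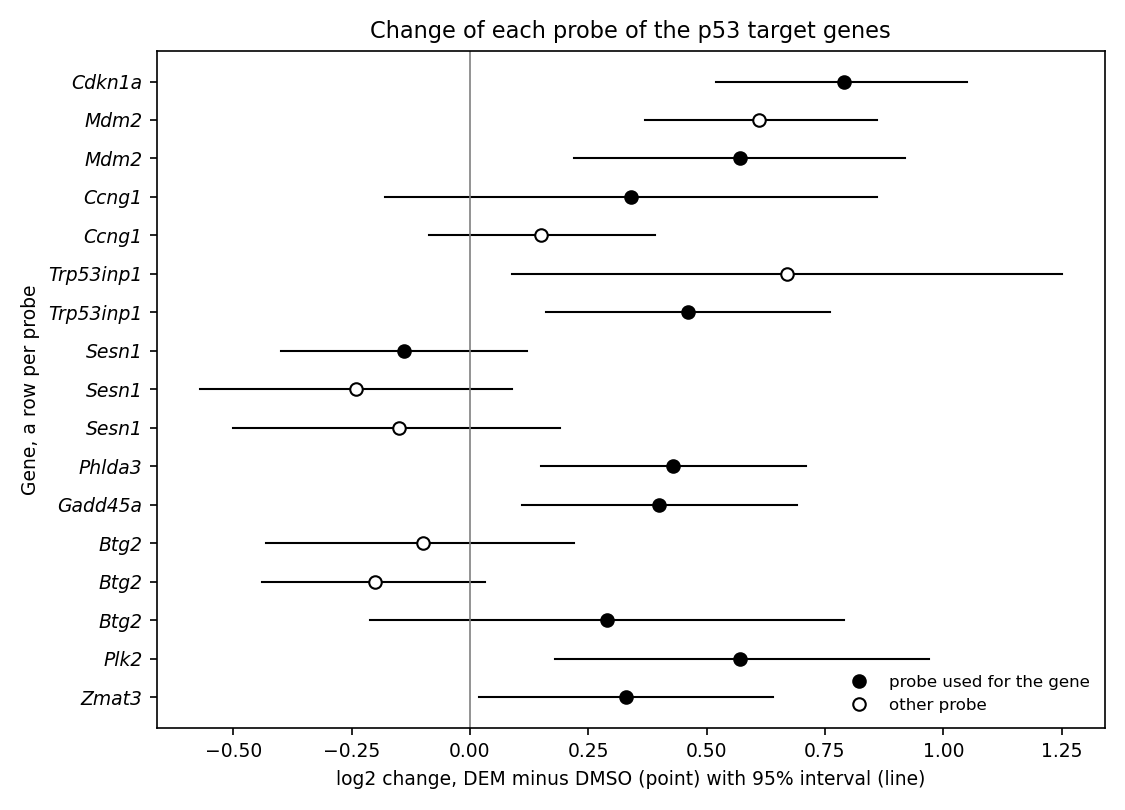
Log2 change of DEM minus DMSO (x axis) for each of the 17 probes of the 10 genes, a row per probe, with its 95% interval from limma fitted to every probe. Filled points are the probe used for the gene. The 2 Mdm2 probes nearly coincide at 0.61 and 0.57, the 3 Sesn1 probes all lie below 0, and the 3 Btg2 probes fall on both sides of 0.

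Among the genes that feed back on p53 or on survival signals, Mdm2, the ubiquitin ligase for p53, came closest to the threshold. The brighter of its 2 probes had relative signals of 9.70 and 12.0 in DEM, against 7.16 and 7.31 in DMSO. DEM lay above DMSO on both arrays. Its log2 change was 0.57 ± 0.13 (1.49-fold, 95% interval 0.22 to 0.93, adjusted p = 0.135, limma). The other probe was spotted 10 times per array and averaged 1.63 and 1.52 in DEM, against 1.02 and 1.05 in DMSO. That probe gave a log2 change of 0.61 ± 0.093 (adjusted p = 0.0723, limma with every probe on its own). Its spots ran from 1.52 to 1.68 on DEM array 1 and from 1.47 to 1.55 on DEM array 2, against 0.908 to 1.10 on DMSO array 1 and 0.979 to 1.09 on DMSO array 2. Both Mdm2 probes placed the DEM arrays above the DMSO arrays, but they ordered the DEM arrays differently, with array 2 higher by the brighter probe and array 1 higher by the other.

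**Figure D3:**
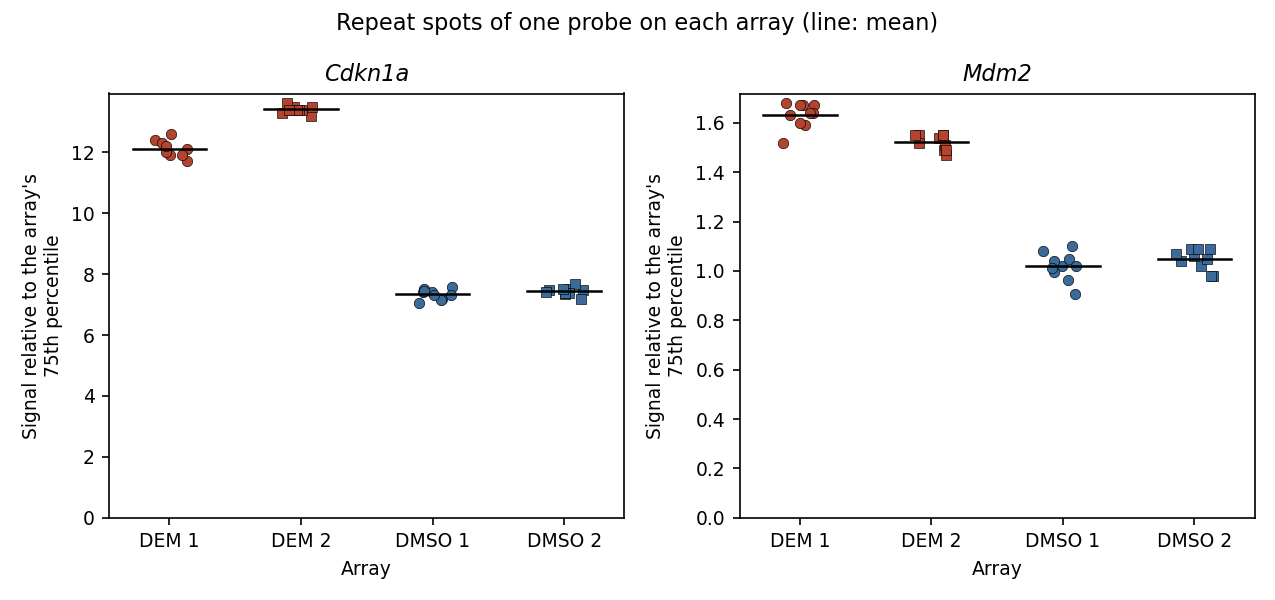
Relative signal of the 10 repeat spots of the Cdkn1a probe and of 1 Mdm2 probe on each array (y axis from 0, spots jittered sideways, line at the mean). For both genes every spot of the DEM arrays lies above every spot of the DMSO arrays, with 11.7 as the lowest DEM spot and 7.66 as the highest DMSO spot for Cdkn1a.

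Phlda3, a pleckstrin-homology protein that competes with the kinase AKT for membrane lipids, had relative signals of 127 and 132 in DEM, against 102 and 90.4 in DMSO. The DEM arrays lay close together and above both DMSO arrays. Its log2 change was 0.43 ± 0.10 (1.35-fold, adjusted p = 0.145, limma). Trp53inp1, which promotes p53 activity and takes part in autophagy, had 2.72 and 3.16 in DEM, against 2.18 and 2.09 in DMSO. The groups did not overlap, and its log2 change was 0.46 ± 0.11 (1.38-fold, adjusted p = 0.148, limma). A dimmer Trp53inp1 probe had 0.221 and 0.314 in DEM, against 0.147 and 0.186 in DMSO, with a log2 change of 0.67 ± 0.22 and again no overlap.

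Zmat3, a zinc finger protein that binds RNA, had relative signals of 4.24 and 5.00 in DEM, against 3.67 and 3.66 in DMSO. The DMSO arrays were all but equal and both DEM arrays were above them. This gave a log2 change of 0.33 ± 0.12 (1.26-fold, 95% interval 0.019 to 0.64, adjusted p = 0.239, limma).

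Sesn1, a sestrin that activates AMPK and restrains mTORC1, was the exception. Its brightest probe had relative signals of 3.23 and 3.33 in DEM, against 3.46 and 3.80 in DMSO, so both DEM arrays lay below both DMSO arrays. The log2 change was −0.14 ± 0.10 (95% interval −0.40 to 0.11, adjusted p = 0.495, limma). The other probes had log2 changes of −0.24 ± 0.12 and −0.15 ± 0.13, the dimmest with overlapping groups. Median scaling of the arrays put the median of all genes at 0.14 and the Sesn1 value at 0.0017. For its relative Sesn2, a sestrin also induced by ATF4 and NRF2, the values were 3.74 and 3.83 in DEM, against 2.16 and 2.18 in DMSO. Sesn2 rose by a log2 change of 0.80 ± 0.083 (adjusted p = 0.0456, limma) and was the 1 call among the 14 tested relatives (1.22% of all genes). Over 15 alternatives that give 1 value per gene it stayed between 0.72 and 0.95 on that scale, and it was called in 7 of them and in none that left out an array. The third sestrin, Sesn3, had a log2 change of −0.26 ± 0.091 (adjusted p = 0.234, limma).

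The DEM arrays did not read the 10 genes equally. DEM array 2 was higher than DEM array 1 for 9 of them, Gadd45a excepted, with a median difference of 0.18 on the log2 scale, against a median difference of 0.0064 over all genes, 51.7% of which were higher on array 2. DMSO array 2 was higher than DMSO array 1 for 7 of the 10, and for 41% of all genes. The median difference was 0.083 for the 10, against −0.042 over all genes. Without DEM array 2 the median log2 change of the 10 genes was 0.38 and without DEM array 1 it was 0.52. Ccng1 and Btg2 moved most, to 0.13 and 0.086 without DEM array 2, and to 0.55 and 0.49 without DEM array 1. Zmat3 moved to 0.21 without DEM array 2. Ccng1 also moved to 0.17 without DMSO array 1 and to 0.51 without DMSO array 2. Btg2 moved to 0.14 without DMSO array 1 and to 0.44 without DMSO array 2, and Sesn1 to −0.21 and −0.075. The part of any array effect in these values was not tested.

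Whether single genes passed the threshold depended on how the variance was modelled, how the arrays were scaled or background-corrected, and which probes were kept. With eBayes fitted along an intensity trend, 4 of the 10 genes were called higher, Cdkn1a, Mdm2, Phlda3 and Plk2, with adjusted p-values of 0.00493, 0.0374, 0.0275 and 0.0497 (limma), against 4.67% of all genes in either direction. With robust fitting added, Trp53inp1 joined them at an adjusted p of 0.0414, which made 5 of 10, against 5.68% of all genes. Normexp background correction with quantile normalization called Cdkn1a and Phlda3 (2 of 10, against 3.97% of all genes). Scaling on the median (3.65% of all genes) and a filter on probes well above background on all 4 arrays (2.92%) each called Cdkn1a alone. None of the 10 was called under quantile normalization alone (0.599% of all genes), spike-in scaling (3.68%) or with every probe on its own (1.01% of probes and 0 of the 17). None was called without DEM array 1 (0.779% of all genes) or without DEM array 2 (0.656%). No setting called Ccng1, Gadd45a, Btg2, Zmat3 or Sesn1.

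**Figure D4:**
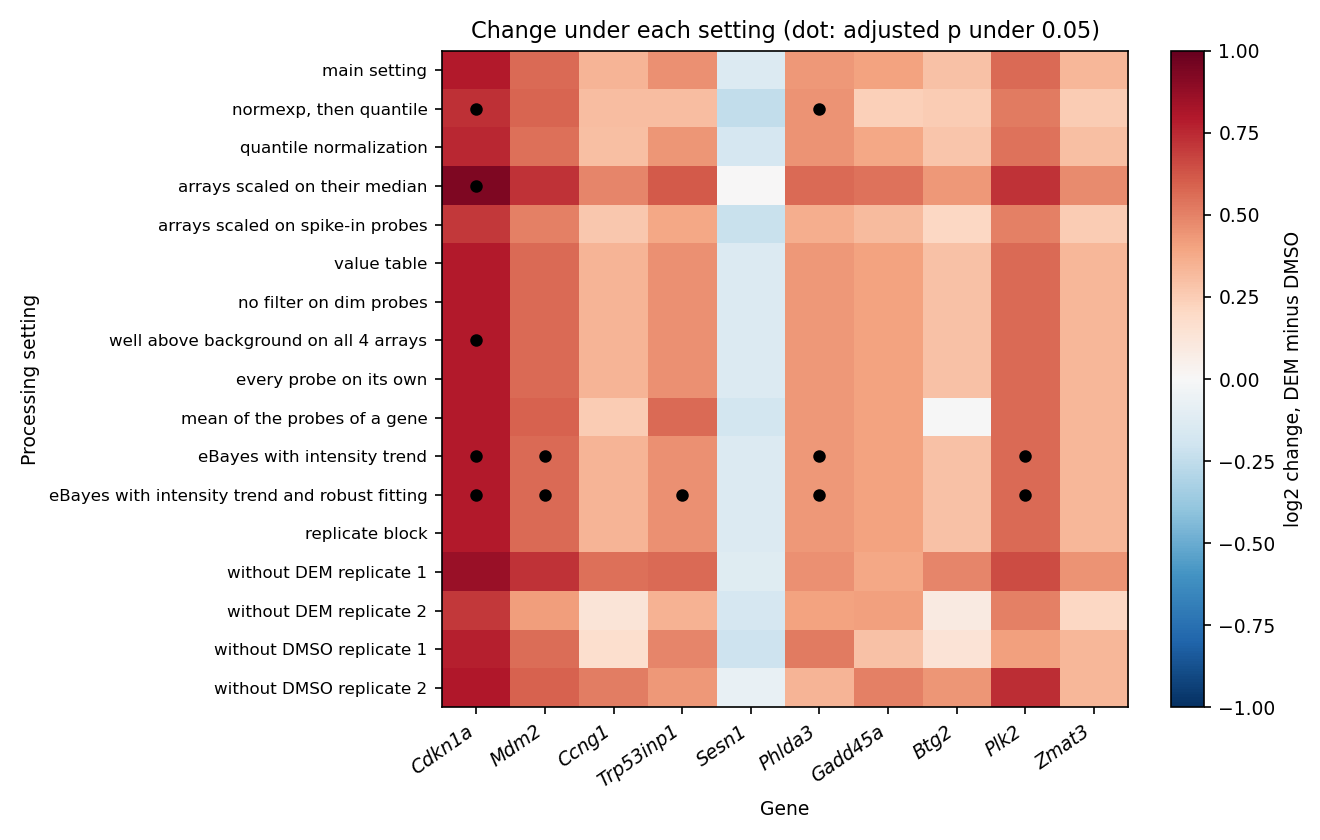
Log2 change of DEM minus DMSO (colour) of the 10 genes (columns) under the main and 16 other settings (rows), with a dot where the adjusted p is under 0.05. Cdkn1a has 5 dots and stays between 0.71 and 0.93 in the 16 other settings, Phlda3 has 3, Mdm2 and Plk2 have 2 each, Trp53inp1 has 1, and Sesn1 stays near or below 0.

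The other genes of the p53 pathway were read from lists chosen with earlier results of these data known. Scaling moved the median of all genes too, from −0.0061 to 0.14 under median scaling and to −0.081 under spike-in scaling. The list medians under these settings are to be read beside those values. Of 12 apoptosis targets tested, 0 were called by limma (1.22% of all genes) and 3 were higher at an unadjusted p under 0.05 (9.02% of all genes). Their median log2 change was 0.14, with 0.28 under median scaling, 0.065 under spike-in scaling and 0.053 under normexp with quantile normalization. Those 3 were Pmaip1 (NOXA, 0.42 ± 0.13), Bbc3 (PUMA, 0.27 ± 0.086), both killers of the BCL2 family, and Apaf1, the core of the apoptosome (0.39 ± 0.11, and 0.10 as the mean of its probes), with adjusted p-values of 0.200, 0.211 and 0.176. Bax had 0.058 ± 0.10. Fas, a death receptor, had −0.17 ± 0.11. Of 8 tested genes of repair and nucleotide supply, 0 were called (1.22% of all genes). An unadjusted p under 0.05 was reached by 0, against 9.02% of all genes higher and 10.2% lower. The median was 0.15, with 0.29 under median scaling, 0.072 under spike-in scaling and 0.062 without DMSO array 2. Named by their p-values were Ercc5, a repair nuclease, at 0.26 ± 0.11, Polk, a translesion polymerase, at 0.51 ± 0.27 (−0.053 as the mean of its probes), and Gtse1, which acts on p53 late in the cell cycle, at 0.24 ± 0.17 (0.029 without DMSO array 2 and 0.46 without DMSO array 1). The classic repair targets Ddb2 and Xpc had −0.084 ± 0.11 and 0.11 ± 0.12.

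Of 12 tested metabolic and other targets, 0 were called (1.22% of all genes) and 2 were higher at an unadjusted p under 0.05 (9.02% of all genes). The median was 0.14, with 0.28 under median scaling and 0.062 under spike-in scaling. Gdf15, a stress cytokine also induced by ATF4, had relative signals of 5.42 and 8.69 in DEM, against 2.48 and 2.98 in DMSO. The groups did not overlap, but the DEM arrays lay far apart, and the log2 change was 1.34 ± 0.26 (adjusted p = 0.106, limma). It was called in 5 of 15 alternatives, between 1.00 and 1.68. Eda2r, a receptor of the TNF receptor family, had a log2 change of 0.54 ± 0.21 (adjusted p = 0.272, limma). Its unadjusted p was 0.0558 (limma), so it was not among the 2 counted above.

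Of 16 tested genes for p53 and its regulators, 0 were called (1.22% of all genes). An unadjusted p under 0.05 was reached by 0 with the higher and 3 with the lower mean in DEM, against 9.02% and 10.2% of all genes (median −0.032, and 0.11 under median scaling). Trp53 itself, which encodes p53, had relative signals of 2.22 and 1.99 in DEM, against 2.60 and 2.52 in DMSO. Both DEM arrays lay below both DMSO arrays, and the log2 change was −0.28 ± 0.10 (adjusted p = 0.236, limma; −0.36 to −0.14 over 15 alternatives). The other 2 were Atm, the damage kinase (−0.40 ± 0.12), and Trp53bp1, which binds at DNA breaks (−0.27 ± 0.092), with adjusted p-values of 0.202 and 0.232. Mdm4, the partner of MDM2, had −0.24 ± 0.12, opposite in sign to Mdm2.

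Of 15 cell cycle genes that the DREAM complex represses downstream of p21, 0 were called (1.22% of all genes). Their median log2 change was −0.048, and 0.10 under median scaling. Only 1 had the lower mean in DEM with an unadjusted p under 0.05, against 10.2% of all genes. That was Plk4, the kinase that starts centriole duplication, at −0.44 ± 0.11 (adjusted p = 0.156, limma). Plk1, a mitotic kinase, had −0.21 ± 0.17 with overlapping groups, and Ccna2, cyclin A, had 0.17 ± 0.094. Cdk1 had −0.031 ± 0.13 and Ccnb1, cyclin B, −0.10 ± 0.15.

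**Figure D5:**
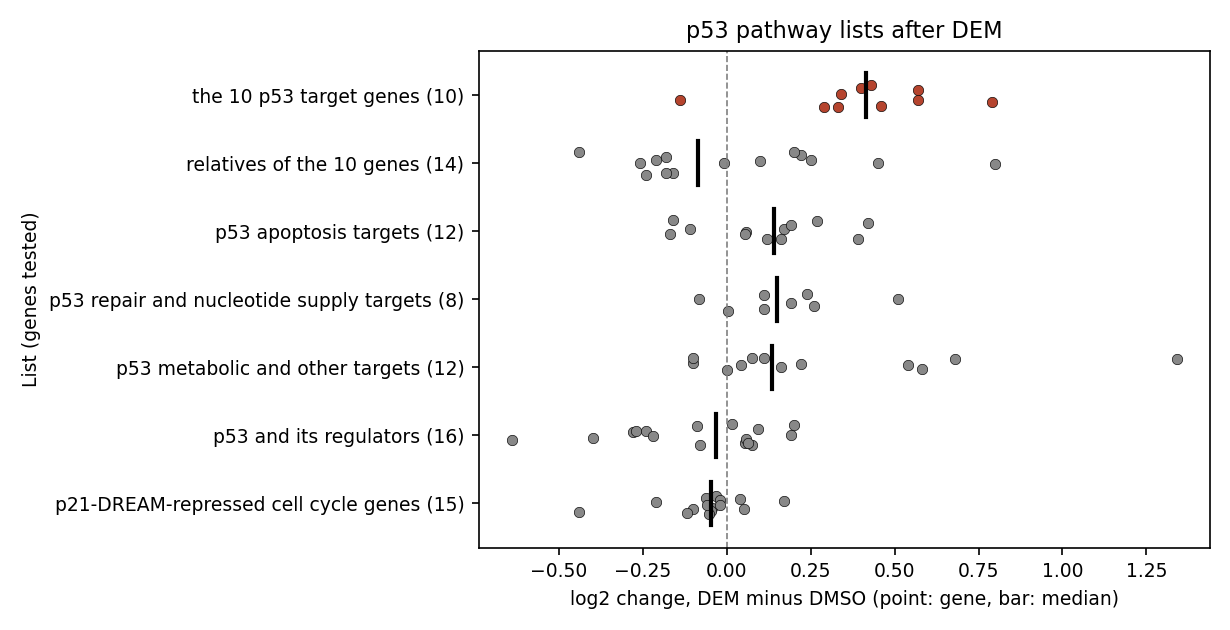
Log2 change of DEM minus DMSO (x axis) of every tested gene in 7 lists (rows, number of genes in brackets), with a bar at the median. The median is 0.41 for the 10 p53 target genes (red), between 0.14 and 0.15 for the 3 other target lists (0.28 to 0.29 under median scaling and 0.062 to 0.072 under spike-in scaling), and between −0.084 and −0.032 for relatives, regulators and cell cycle genes. Under median scaling these last 3 medians turn to between 0.061 and 0.11, where the median of all genes is 0.14. Under spike-in scaling the median of all genes is −0.081.

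The relatives of the 10 genes had a median log2 change of −0.084 over 14 tested (0.061 under median scaling). Sesn2 was called, against 1.22% of all genes. An unadjusted p under 0.05 was reached by 2 with the higher mean in DEM, Sesn2 and Plk3, against 9.02% of all genes. It was reached by 2 with the lower mean, Plk4 and Sesn3, against 10.2% of all genes. Cdkn1b, which encodes the kinase inhibitor p27, had −0.16 ± 0.088. Cdkn1c and Phlda2 did not pass the background filter. Gadd45b and Gadd45g had −0.01 ± 0.10 and 0.20 ± 0.10. Phlda1 had 0.25 ± 0.10 and Ccng2, cyclin G2, 0.22 ± 0.12. Plk3, another polo-like kinase, had 0.45 ± 0.13 (adjusted p = 0.179, limma). Btg1 had −0.18 ± 0.089, Btg3 0.10 ± 0.084 and Trp53inp2 −0.18 ± 0.13. Among genes outside the 10, the patterns nearest to Cdkn1a over the 4 arrays, by Euclidean distance between centred log2 values among 10530 named genes, were those of Dusp1, a MAP kinase phosphatase (distance 0.034), Gbe1, the glycogen branching enzyme (0.044), and Rap2a, a small GTPase (0.048). Their log2 changes were 0.81, 0.83 and 0.83, with adjusted p-values of 0.0529, 0.0534 and 0.0496 (limma). Over 4 arrays such likeness is a description.

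As a check of the treatment, all 7 NRF2 target genes examined, Nqo1, Hmox1, Gclc, Gclm, Txnrd1, Srxn1 and Slc7a11, were called higher in DEM, with log2 changes from 0.81 (Txnrd1) to 5.15 (Slc7a11). The 7 calls were 6 after spike-in scaling and 6 after quantile normalization, 5 without either DEM array, and 0 without either DMSO array or with no filter on dim probes, with a median log2 change of 2.01 to 2.45 throughout. Over all genes 111 were called higher and 79 lower, and the split was 404 and 163 under median scaling and 198 and 374 under spike-in scaling. On each array 50.4% to 52.6% of 41174 probes were well above background, 0 spots were saturated, and all 4 arrays lay on 1 slide with 1 scan time. Of 9 hepatocyte and hepatoma markers, 5 or 6 were well above background on each array, among them Afp, Alb, Krt8 and Krt18, while Ttr, Hnf4a and Apoa1 did not pass the background filter. Their summed relative signals were 810 and 813 in DEM, against 826 and 780 in DMSO, a sum made up mostly of Krt8, Krt18 and Afp. Afp had a log2 change of 0.29 ± 0.091 (adjusted p = 0.209, limma). The brightest of 5 Apob probes was well above background on 2 of 2 DEM arrays and 1 of 2 DMSO arrays, and the other 4 on no array. It had 0.0963 and 0.225 in DEM, against 0.0271 and 0.00674 in DMSO. That is a log2 change of 3.45 ± 0.80 (adjusted p = 0.138, limma). It was 0.91 under normexp with quantile normalization, and Apob was called in 3 of 14 alternatives. Of the other cell types, 0 of 3 endothelial markers, 2 to 3 of 4 macrophage markers, 3 to 4 of 4 fibroblast markers and 3 of 4 cholangiocyte markers were well above background. Among macrophage markers Ptprc and Adgre1 did not pass the filter, and the summed relative signals were 6.00 and 4.67 in DEM, against 5.78 and 5.25 in DMSO. Fibroblast markers, led by Col1a1, summed to 75.4 and 89.0 in DEM, against 85.0 and 94.2 in DMSO. Cholangiocyte markers, led by Krt7, summed to 129 and 152 in DEM, against 157 and 170 in DMSO. All 3 tested cholangiocyte markers were lower on both DEM arrays than on both DMSO arrays, as were 25.6% of all genes. Sox9 had 1.55 and 1.79 in DEM, against 2.71 and 2.67 in DMSO, a log2 change of −0.69 ± 0.11 (adjusted p = 0.0782, limma), and was called in 4 of 15 alternatives. Krt7 and Krt19 had −0.21 ± 0.12 and −0.19 ± 0.11 (adjusted p = 0.427 and 0.443, limma). The part of these markers in the values above was not tested.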

How the data were processed

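RNA of 4 samples (2 DEM, 2 DMSO) was measured; 500 ng of RNA per sample went into Cy3 labelling, per the labels' protocols. The deposited values are the spot intensity called processed signal, which per the file headers comes from Agilent Feature Extraction 10.7.3.1 (protocol GE1_107_Sep09, 1 colour, mm9 annotation) after its own background subtraction. The deposited value table holds the same intensity in all 45018 spots of each array, linear and uncentred, with column medians from 13.8 to 16.2. From it, log2 minus each array's 75th percentile over 43379 non-control spots was computed, outlier spots were dropped and spots averaged per probe. Probes were named by accession through RefSeq (GRCm38.p6, names only), 26690 of 41174 with 1 symbol; 22 probes without a usable spot were left out. A gene took its brightest probe among those well above background on at least 2 arrays. DEM was compared with DMSO by limma 3.58.1 in R 4.3.3 (lmFit, eBayes, Benjamini-Hochberg over 15537 genes, threshold 0.05). The number of arrays limits the precision. On simulated data with the 15537 genes of this comparison, the recovery was 43.8% for 2-fold and 89.8% for 4-fold changes. Of the simulated calls, 4.54% were false. The simulated spread came from limma's own fitted model, without intensity trend or array effect, so it cannot show the error rate on the real arrays. Changes under 2-fold, such as those of the 10 genes, were not simulated. The members and lists were chosen with earlier results of these data known. Named are all 10 genes and their relatives, up to 3 genes of smallest p per list (1 of them is not reported here), and the 3 patterns nearest to Cdkn1a; other genes were named after their values were seen. The alternatives were normexp (on the median spot signal, offset 50), quantile, median and spike-in scaling, the value table, 2 other filters, every probe, mean of probes, 2 other variance models, a replicate block, and each array left out.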

Additional observations from a re-analysis of the deposited data

How the results depend on the processing

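Over all genes the number called was 190, and it was 617 under normexp, 93 under quantile normalization, 567 when scaled on the median, 572 on spike-in probes, 426 with probes well above background on all 4 arrays, 726 with an intensity trend and 882 with robust fitting added. Limma called 0 without a filter on dim probes (at an unadjusted p under 0.05, 1246 were higher and 1919 lower). Leaving out 1 array gave 0 to 121 calls, with 0 without DMSO replicate 1 (unadjusted, 983 higher and 1130 lower) and 0 without DMSO replicate 2 (844 and 1171), and 102 without DEM replicate 2. Of the 10 p53 target genes, 0 were called, against 2 under normexp, 1 under median scaling, 1 with the filter on all 4 arrays, 4 with the trend and 5 with robust fitting, and 0 whichever array was left out. Their median log2 change of 0.41 was 0.31 under normexp, 0.56 under median scaling, 0.34 under spike-in scaling and 0.37 to 0.52 without 1 array. Over their 17 single probes the median was 0.34. Sesn1 turned to 0.0017 under median scaling and Btg2 to −0.0065 with the mean of probes. Apart from these 2, each of the 10 genes kept its sign in all 16 alternatives. By construction, the value table, the other filters and variance models, every probe and the replicate block could not move the log2 changes of the probes used for the 10 genes. Their unchanged signs there are no check of direction. Except where a value or the construction of the alternative shows it, the cause was not tested. The replicate numbers pair the samples by number alone, with a correlation of 0.138 between deviations of same-numbered arrays over genes. With a replicate block 143 genes, 0 of the 10 and 6 of the 7 NRF2 targets were called. In this balanced design the block cannot move a log2 change, so the median remained 0.41 by construction. List medians changed sign over the alternatives for relatives (−0.18 to 0.061), regulators (−0.11 to 0.11) and cell cycle genes (−0.17 to 0.10). The highest of each came under median scaling, which put the median of all genes at 0.14.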
